A study of Homo sapiens with 6 samples.

Results

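The genes described here encode the protein factors that start, extend and end protein synthesis on cytosolic ribosomes. They were chosen by symbol, as genes named EIF1 to EIF6, EEF1, EEF2, ETF1, GSPT or PABPC, and not by any measured value. The rule found 61 of the 11584 genes in the table. Of these, 59 encode factors or enzymes that modify factors, and 2 are RNA genes, EIF3J-DT and EIF1B-AS1, whose symbols match because each begins beside a factor gene. Every factor gene was read by a single probe set except EEF1A1, which had more than 1, and the set of highest mean was used. A probe set is a group of short oligonucleotides on the array that together read 1 transcript, and 22 of the 61 were of a kind (_x_at or _s_at) that can also pick up related transcripts.

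Initiation begins when eIF2 carries the initiator tRNA to the small ribosomal subunit, where eIF1, eIF1A and the large eIF3 complex are bound. The eIF4 group joins this complex to the capped end of the mRNA, and the ribosome then scans to the start codon, where eIF5 and eIF5B complete the assembly. eEF1A and eEF2 drive elongation, eIF5A helps the ribosome through difficult stretches, and eRF1 with eRF3 ends the chain. LIN28B binds RNA, keeps the let-7 microRNAs from maturing and also contacts many mRNAs, and the study asked how transcript levels change when it is depleted.

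The 6 arrays, Human Genome U133 Plus 2.0 from Affymetrix, measured total RNA, 2 for each of 3 groups. All cells were HEK293 T-REx Flp-In, an established human embryonic kidney line, with a FLAG/HA-tagged LIN28B transgene under doxycycline control, so the controls carry the transgene too. The groups were mock-transfected cells without induction, mock-transfected cells with the transgene induced, and cells without induction that received siRNA against LIN28B. The protocol gives doxycycline at 250 ng/ml for 15 to 20 h in cells that were to be crosslinked, and no dose or time for the array cells. No group here received a control siRNA, so siRNA transfection and loss of LIN28B cannot be told apart. Whether replicates were separate cultures is not in the labels, so p-values cover the spread between these arrays alone, and it may be technical.

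Values are the authors' log2 values per probe set, from 2.59 to 14.3, with array medians between 7.13 and 7.18. A log2 fold change is the difference of 2 group means, and -1 is a halving. Arrays of 1 group correlated at 0.9899 to 0.9937 over all probe sets, and knockdown with mock arrays at 0.9700 to 0.9745. LIN28B read 10.02 and 9.85 on the mock arrays without induction, 10.15 and 10.11 on the induced arrays and 7.51 and 7.53 on the knockdown arrays, which leaves 18.7% of the uninduced mock level (log2 fold change -2.42, limma adjusted p = 5.02e-07). Of 7 markers listed for HEK293 cells, 5 were in the table. KRT18 had a log2 fold change of 0.03 and CDH2 of -0.23, neither passing, while KRT8 rose by 0.38, and NEFL and VIM fell by 0.59 and 0.18. Of markers of other cells, 2 of 5 for blood (CD79A and HBB), 1 of 6 for fibroblasts (COL1A1) and 0 of 3 for endothelium were in the table. The lowest and highest of their values were 4.93 and 6.28, and none passed.

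Some translation factor mRNAs begin with a C followed by a run of C and T, the terminal oligopyrimidine (TOP) start, through which their translation follows growth signals. To show which members have it, the RefSeq windows of GRCh38.p14 around annotated gene starts were read. A window was counted when the first base was C and at least 4 bases of C or T followed, on the gene's own strand. Of the 61 members, 47 had a window, 10 of them more than 1, and 9 members had such a start, or 19.1% of those matched. Over all genes in the RefSeq table it was 1404 of 27305, or 5.14%. EIF2AK1, EIF2S2, EIF3E, PABPC1, EIF3G, EEF1AKMT1, EEF1D, EIF3H, EIF3A, EEF1A2, EEF1AKMT3, PABPC3, EEF2KMT and EIF4EBP1 were not matched. The 15 bases before and the 15 from the start are printed 5′ to 3′, with the run in capitals.
EEF1A1: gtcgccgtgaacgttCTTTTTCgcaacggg (chr6:73521018-73521047, minus strand)
EEF2: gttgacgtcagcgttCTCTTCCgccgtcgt (chr19:3985449-3985478, minus strand)
EIF2A: tcacccgagcggtttCTCTTTCCgggacaa (chr3:150546772-150546801, plus strand)
EIF2D: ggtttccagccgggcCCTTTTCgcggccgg (chr1:206612451-206612480, minus strand)
EIF2S3: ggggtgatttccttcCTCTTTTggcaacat (chrX:24054941-24054970, plus strand)
EIF3D: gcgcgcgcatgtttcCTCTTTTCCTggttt (chr22:36529152-36529181, minus strand)
EIF3K: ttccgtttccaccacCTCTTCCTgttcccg (chr19:38619173-38619202, plus strand)
EIF3M: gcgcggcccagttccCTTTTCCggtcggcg (chr11:32583816-32583845, plus strand)
EIF4B: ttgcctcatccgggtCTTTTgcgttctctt (chr12:53006441-53006470, plus strand)

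In the knockdown, most translation factor genes did not pass the test, and those that did moved in both directions. Among members EEF2KMT, EIF3J and EIF3J-DT fell most and EIF5A2 rose most. A probe set shared by SNORA41 and EEF1B2, not a member, fell further, with a log2 fold change of -2.68. The main elongation factor genes EEF1A1 and EEF2 stayed within narrow intervals around no change. Limma called 17 of the 61 against mock cells without induction, or 27.9%, beside 28.0% of all genes tested, a share near the background. Of these, 6 rose, 9.84% of members against 13.5% of all genes, and 11 fell, 18.0% against 14.5%. The median log2 fold change was -0.03 over members and 0.01 over all genes, and the median absolute change was 0.14 and 0.21. Without replicate 1 of the uninduced mock cells both member counts were larger, while over all genes there were more rises and fewer falls. Both knockdown arrays read below all 4 mock arrays for 21 members, 34.4% against 26.0% of all genes, and above all 4 for 14, 23.0% against 27.1%.

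**Figure D1:**
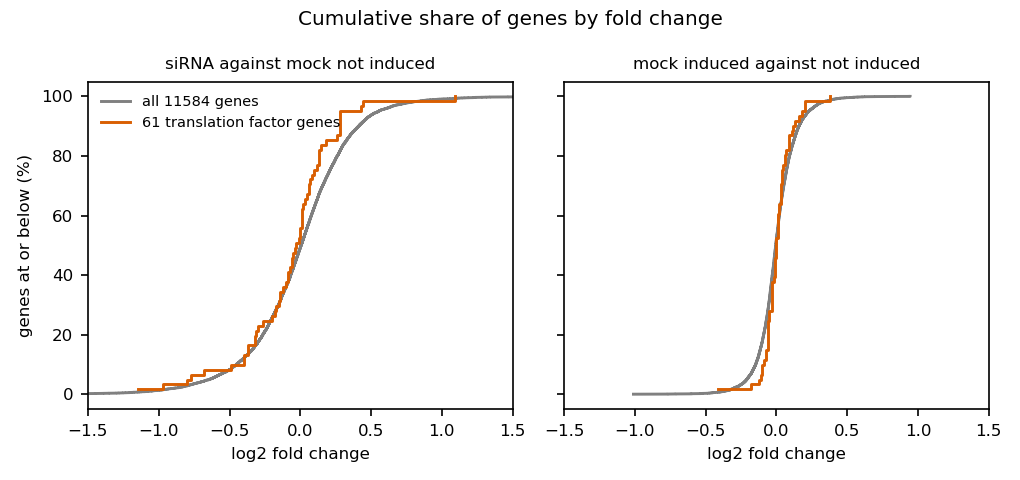
The share of genes (vertical axis, percent) at or below each log2 fold change (horizontal axis), for all 11584 genes in grey and the 61 translation factor genes in orange. On the left, knockdown against mock without induction, the orange curve crosses 50% near 0, as the grey one does, with medians of -0.03 and 0.01. On the right, induced against not induced, both curves are steep around 0.

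**Figure D2:**
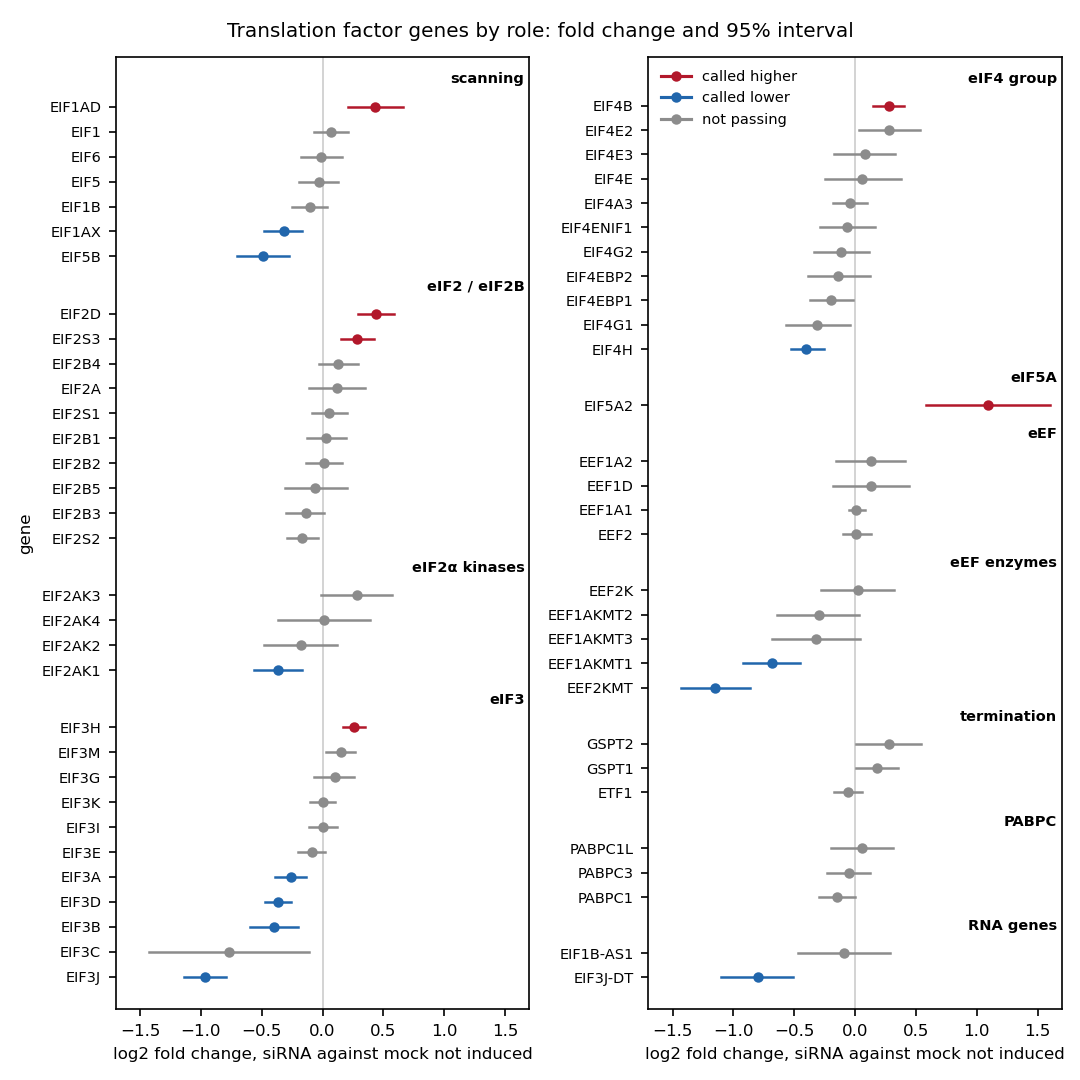
Log2 fold change of all 61 members in the knockdown against mock without induction, with its 95% interval from limma (bars, 2 arrays a group), grouped by role. Red marks the 6 called higher, blue the 11 called lower and grey the 44 that did not pass.

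The group of scanning and start codon recognition, in which EIF1AD and EIF6 were also counted, had 3 of 7 members called, 42.9% beside 28.0% of all genes. The 1 that rose was EIF1AD, and 2 fell. EIF5B, the GTPase that joins the ribosomal subunits, read 8.12 and 8.03 in mock cells without induction, 8.08 and 8.10 with induction and 7.52 and 7.65 in the knockdown. The knockdown arrays lay below all mock arrays, with a log2 fold change of -0.49 (standard error 0.0944, adjusted p = 0.00408 by limma). EIF1AX, whose product eIF1A promotes scanning, read 10.09 and 9.95, then 9.98 and 9.93 with induction, and 9.66 and 9.74 in the knockdown. It fell by 0.32 (limma adjusted p = 0.00718), and the adjusted p was 0.0705 without knockdown replicate 1. EIF1AD, a gene for a protein with a domain like that of eIF1A, read 7.27 and 7.38, then 7.38 and 7.28, and 7.79 and 7.72 in the knockdown. It rose by 0.43 (standard error 0.102, adjusted p = 0.0113 by limma), with an adjusted p of 0.0896 without knockdown replicate 1. EIF1, EIF1B, EIF5 and EIF6 did not pass, with log2 fold changes between -0.10 and 0.07. EIF1, which guards the choice of start codon, read 11.46 and 11.64 without induction and 11.61 and 11.64 in the knockdown, so its groups met, and EIF1B read 10.22 and 10.17 against 10.16 and 10.03.

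Of the 10 genes of eIF2, its exchange factor eIF2B and related tRNA delivery, 2 rose and 0 fell. That is 20% called, beside 28.0% of all genes. EIF2D, which can place tRNA on the small subunit without eIF2, read 9.80 on both mock arrays without induction, 9.87 on both with it, and 10.32 and 10.17 in the knockdown. It rose by 0.44 (standard error 0.0665, adjusted p = 0.00126 by limma). EIF2S3, which encodes the eIF2 gamma subunit that binds GTP and the initiator tRNA, read 10.52 and 10.40, then 10.52 and 10.51, and 10.73 and 10.76 in the knockdown. It rose by 0.28 (standard error 0.0584, adjusted p = 0.0058 by limma), and the adjusted p was 0.0590 when the fit had no intensity trend. The other eIF2 subunits did not move with it. EIF2S2, for the beta subunit, read 10.17 and 10.15 without induction and 9.99 and 10.00 in the knockdown, a log2 fold change of -0.17 with limma adjusted p = 0.0542, and EIF2S1, for the alpha subunit, had 0.05 (95% interval -0.09 to 0.20). The 5 eIF2B genes had changes between -0.14 and 0.13, and none passed. EIF2A had 0.12 (95% interval -0.11 to 0.35).

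The 4 kinases that phosphorylate eIF2 alpha under stress had 1 call, or 25% beside 28.0% of all genes. EIF2AK1, the heme-regulated kinase HRI, read 8.42 and 8.31, then 8.29 and 8.37 with induction, and 7.99 and 8.01 in the knockdown. It fell by 0.37 (standard error 0.0868, adjusted p = 0.0116 by limma), and its adjusted p was 0.0764 without knockdown replicate 1 and 0.0614 without knockdown replicate 2. EIF2AK3, the endoplasmic reticulum kinase PERK, read 7.04 and 6.71 without induction, 7.10 and 7.05 with it and 7.19 and 7.12 in the knockdown. Its log2 fold change of 0.28 did not pass (limma adjusted p = 0.136), was 0.12 without replicate 2 of the uninduced mock cells and 0.44, then passing, without replicate 1. EIF2AK2, the double-stranded RNA kinase PKR, read 7.29 and 7.03 without induction, 7.07 and 7.33 with it and 6.92 and 7.04 in the knockdown, which overlapped the uninduced arrays and lay below the induced ones. EIF2AK4, the amino acid sensor GCN2, had 0.01 (95% interval -0.37 to 0.39).

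The eIF3 complex, the platform that holds the small subunit, mRNA and other factors together, had 4 of 11 measured subunit genes lower, 1 higher and 6 not passing, so 45.5% were called beside 28.0% of all genes. EIF3J, a loosely attached subunit that sits near the decoding site, fell most. It read 9.55 and 9.41 in mock cells without induction, 9.41 and 9.32 with induction and 8.53 and 8.50 in the knockdown. The knockdown arrays were well below all mock arrays, with a log2 fold change of -0.97 (standard error 0.0785, adjusted p = 6.26e-05 by limma), or 51.1% of the level in mock cells. EIF3B and EIF3A encode core scaffold subunits. EIF3B read 9.12 and 9.36, then 9.19 and 9.18, and 8.88 and 8.81, and fell by 0.40 (limma adjusted p = 0.0093). EIF3A read 10.56 and 10.57, then 10.54 and 10.45, and 10.32 and 10.29, and fell by 0.26 (limma adjusted p = 0.0073). Both lost the call without knockdown replicate 2, with adjusted p of 0.0712 and 0.0579.

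EIF3D, whose product can itself bind the mRNA cap, read 11.85 and 11.96, then 11.91 and 11.84 with induction, and 11.53 and 11.54 in the knockdown. It fell by 0.37 (standard error 0.0487, adjusted p = 0.000648 by limma). EIF3H, a subunit on the outer part of the complex, went the other way. It read 11.51 on both uninduced arrays, 11.50 and 11.52 with induction and 11.76 and 11.78 in the knockdown, a rise of 0.26 (standard error 0.0412, adjusted p = 0.00157 by limma). Without the intensity trend in the fit the adjusted p was 0.0577 for EIF3H and 0.0659 for EIF3A. EIF3E read 12.66 and 12.71 against 12.54 and 12.65 and did not pass, and EIF3G, EIF3I, EIF3K and EIF3M had log2 fold changes between 0.00 and 0.15. EIF3C read 5.01 and 5.18 without induction, 4.90 and 5.70 with it and 3.98 and 4.66 in the knockdown, at the low end of the scale. Its log2 fold change of -0.77 did not pass (limma adjusted p = 0.0789) and was -0.43 without knockdown replicate 1. With either induced array left out the adjusted p was 0.0444 or 0.0482. A second probe set, annotated to EIF3C and its near-identical copy EIF3CL together and thus not used for either, read 11.78 and 11.73 without induction, 11.81 and 11.70 with it and 11.48 and 11.54 in the knockdown.

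The symbol EIF3J-DT belongs to an RNA gene that begins next to EIF3J and runs the other way. It read 6.79 and 7.0 without induction, 6.87 and 7.01 with it and 6.19 and 6.00 in the knockdown. Its log2 fold change was -0.80 (standard error 0.133, adjusted p = 0.00201 by limma), so both genes of the pair were lower on both knockdown arrays than on any mock array. In RefSeq the nearest starts of these 2 genes have 223 bases between them, printed here because both genes that begin at its ends fell. The stretch is 74.9% G and C and holds 29 CG dinucleotides. Capitals mark CCGCCC, which with its reverse complement GGGCGG is the GC box, searched on both strands. It is found 4 times here, none overlapping. Of windows of this length before annotated starts, 41.4% hold at least 1, and the share that holds 4 was not counted. The G and C content and CG count of other windows were not measured either. The sequence is on the plus strand of GRCh38.p14, chr15:44536924-44537146.
EIF3J and EIF3J-DT: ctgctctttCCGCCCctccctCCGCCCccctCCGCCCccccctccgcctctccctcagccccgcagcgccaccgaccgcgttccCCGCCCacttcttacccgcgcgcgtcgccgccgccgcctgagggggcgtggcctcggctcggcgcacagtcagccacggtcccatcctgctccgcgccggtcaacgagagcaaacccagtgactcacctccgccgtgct

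The other divergent pair, EIF1B and EIF1B-AS1, has 8 bases between its starts. EIF1B-AS1 read 5.29 and 5.21 without induction, 5.18 and 5.20 with it and 5.30 and 5.03 in the knockdown, so its groups overlapped, and its log2 fold change was -0.09 (95% interval -0.47 to 0.29). For EIF1B it was -0.10 (95% interval -0.25 to 0.04), not passing, with both knockdown arrays slightly below all mock arrays.

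**Figure D3:**
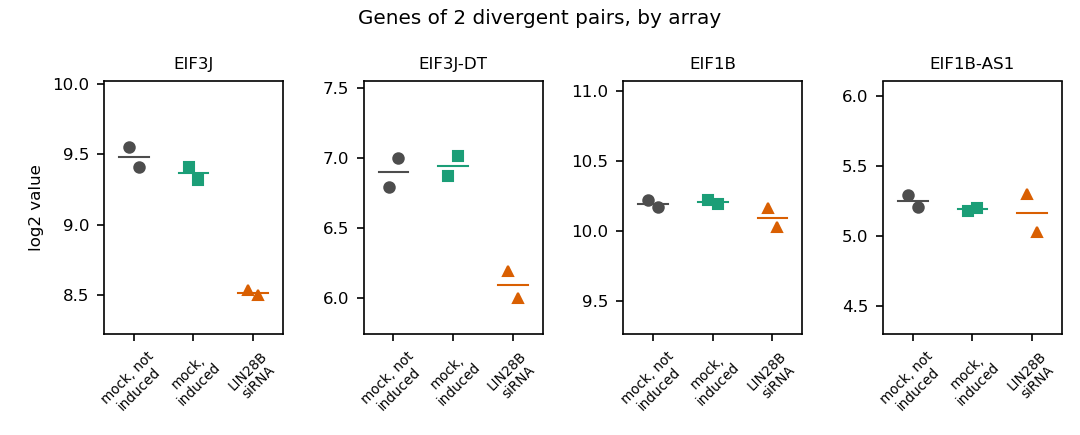
Log2 values (vertical axes, the same span in each panel) of EIF3J, EIF3J-DT, EIF1B and EIF1B-AS1 on each array, with 2 arrays a group and a line at the group mean. The knockdown arrays (triangles) lie below all mock arrays for EIF3J and EIF3J-DT, and by a small margin for EIF1B, while for EIF1B-AS1 the groups overlap.

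The eIF4 group brings the capped end of an mRNA to the ribosome, and 1 of its 11 genes rose and 1 fell. That is 18.2% called, beside 28.0% of all genes. Those 2 encode partners that both stimulate the RNA helicase eIF4A. EIF4H read 9.98 and 9.97, then 9.87 and 9.88 with induction, and 9.57 and 9.59 in the knockdown, and fell by 0.40 (standard error 0.0594, adjusted p = 0.00124 by limma). EIF4B read 10.37 and 10.29, then 10.42 and 10.41, and 10.57 and 10.64 in the knockdown, and rose by 0.28 (standard error 0.0565, adjusted p = 0.00581 by limma). For EIF4B the adjusted p was 0.0574 without knockdown replicate 2 and 0.0581 without the intensity trend. The cap-binding gene EIF4E read 8.20 and 7.88 without induction and 8.0 and 8.20 in the knockdown, so its groups overlapped (log2 fold change 0.06, 95% interval -0.25 to 0.38). EIF4G1, the scaffold of the cap complex, read 8.07 and 8.43, then 8.10 and 8.18, and 7.90 and 7.99 in the knockdown. Its log2 fold change of -0.31 did not pass (limma adjusted p = 0.0865), was -0.12 without replicate 2 of the uninduced mock cells, and was -0.49, then passing, without replicate 1. EIF4A3, a helicase of the exon junction complex, read 10.87 and 10.75 against 10.71 and 10.83. EIF4E2, a cap-binding protein that represses translation, had 0.28 and EIF4EBP1, the inhibitor of eIF4E under mTOR control, -0.20, with limma adjusted p of 0.0926 and 0.0921. Without replicate 2 of the uninduced mock cells EIF4E2 had 0.16 and EIF4EBP1 -0.13, and both passed without replicate 1. EIF4EBP1 had -0.11 without knockdown replicate 1. EIF4E3, EIF4EBP2, EIF4ENIF1 and EIF4G2 had log2 fold changes between -0.14 and 0.08.

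EIF5A2 encodes the second form of eIF5A, a factor that eases the forming of difficult peptide bonds, and had the largest rise. It read 5.62 and 5.21 in mock cells without induction, 5.31 and 5.32 with induction and 6.16 and 6.85 in the knockdown. Both knockdown arrays were above all mock arrays, but they also lay further apart than either mock pair. The log2 fold change was 1.09 (standard error 0.228, adjusted p = 0.00621 by limma), a 2.13-fold rise, from the low part of the scale. Without knockdown replicate 2 it was 0.75 (limma adjusted p = 0.0538).

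None of the 4 elongation factor genes passed by limma, beside 28.0% of all genes, and 0 had an unadjusted p under 0.05. EEF1A1, which encodes the factor that brings aminoacyl-tRNA to the ribosome, read 13.58 and 13.59 without induction, 13.57 and 13.61 with it and 13.61 and 13.58 in the knockdown (log2 fold change 0.01, 95% interval -0.05 to 0.08). EEF2, for the factor that moves the ribosome along the mRNA, read 12.52 and 12.68, then 12.62 and 12.66, and 12.64 and 12.58 (0.01, 95% interval -0.10 to 0.13). Readings near the top of the scale can be compressed, and this was not tested. EEF1A2, the form known from muscle and neurons, read 6.53 and 6.56 against 6.78 and 6.57, and EEF1D, an exchange factor subunit, had 0.13 (95% interval -0.18 to 0.44). A probe set that the platform annotation assigns to both SNORA41 and EEF1B2 is not a member and names neither gene. It read 12.91 and 12.83 without induction, 12.85 and 12.92 with it and 10.13 and 10.25 in the knockdown, the lowest log2 fold change of all 13008 probe sets at -2.68 (standard error 0.0513, adjusted p = 3.25e-09 by limma over probe sets). Of the 8 probe sets of several symbols that list a factor, 4 passed, beside 27.7% of all probe sets.

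Of the 5 enzymes that modify elongation factors, 2 fell and 0 rose, so 40% were called beside 28.0% of all genes. EEF2KMT, a methyltransferase of eEF2, had the largest fall of all members. It read 6.84 and 7.03 in mock cells without induction, 6.56 and 6.49 with it and 5.83 and 5.75 in the knockdown. The log2 fold change was -1.15 (standard error 0.128, adjusted p = 0.000272 by limma), or 45.2% of the level in mock cells. The gene has close copies in the FAM86 family and was read by an _x_at probe set, so its value may include theirs. EEF1AKMT1, a methyltransferase of eEF1A, read 8.55 and 8.46, then 8.51 and 8.44, and 7.69 and 7.96 in the knockdown, and fell by 0.68 (standard error 0.105, adjusted p = 0.00141 by limma). EEF1AKMT2 and EEF1AKMT3, which act on the same factor, had log2 fold changes of -0.30 and -0.32 and did not pass (limma adjusted p = 0.165 and 0.173). EEF1AKMT2 had -0.09 without knockdown replicate 1 and -0.52, then passing, without knockdown replicate 2, and EEF1AKMT3 had -0.18 without replicate 2 of the uninduced mock cells. EEF2K, the kinase that switches eEF2 off, read 7.60 and 7.86 without induction and 7.64 and 7.85 in the knockdown, and its groups overlapped.

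**Figure D4:**
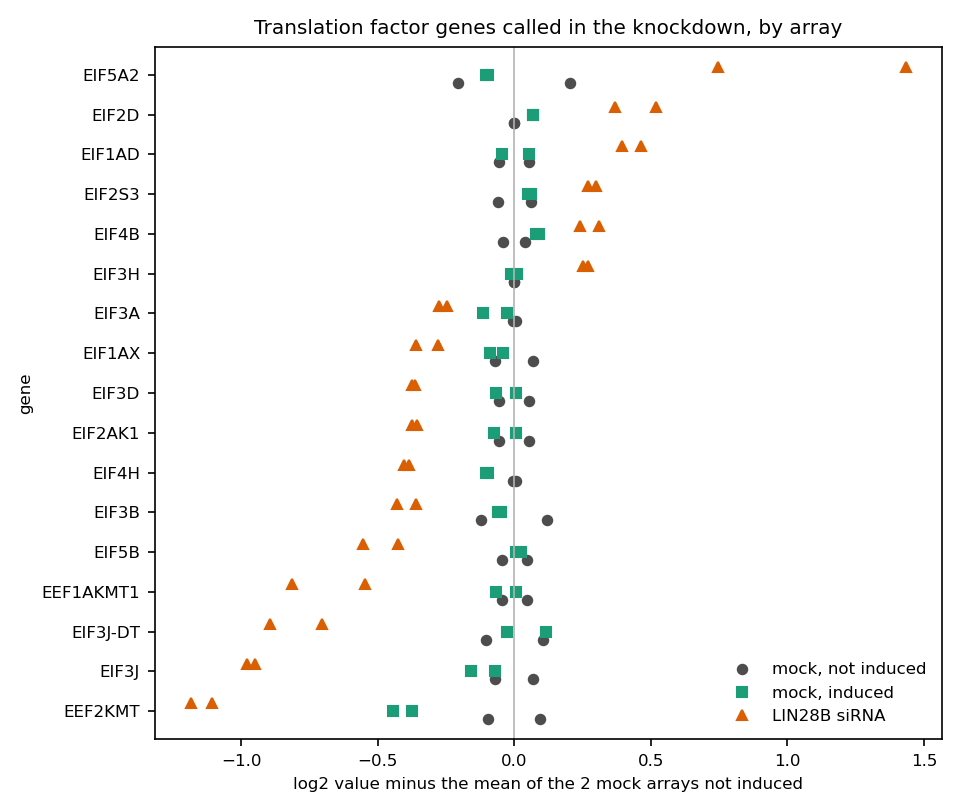
Log2 value on each array minus the mean of the 2 mock arrays without induction (horizontal axis), for the 17 members called in the knockdown, with 2 arrays a group. The knockdown arrays (triangles) lie outside all 4 mock arrays for each gene. For EEF2KMT the induced mock arrays (squares) lie between the other groups.

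Among the termination factors 0 of 3 passed by limma, beside 28.0% of all genes, and 2 had an unadjusted p under 0.05. ETF1, for the stop codon reader eRF1, read 10.71 and 10.66 without induction, 10.65 and 10.61 with it and 10.64 and 10.62 in the knockdown. The eRF3 genes GSPT1 and GSPT2 had log2 fold changes of 0.18 and 0.28 (limma adjusted p = 0.109 and 0.112), with both knockdown arrays above all mock arrays. GSPT2 read 7.59 and 7.28, then 7.38 and 7.36, and 7.70 and 7.72. Its change was 0.12 without replicate 2 of the uninduced mock cells and 0.43, then passing, without replicate 1. Of the 3 cytoplasmic poly(A)-binding protein genes 0 passed, and 1 had an unadjusted p under 0.05. PABPC1, which binds the poly(A) tail and eIF4G, read 12.74 and 12.96 without induction, 12.87 and 12.94 with it and 12.76 and 12.64 in the knockdown, a log2 fold change of -0.15 (limma adjusted p = 0.117). It was -0.27, then passing, without replicate 1 of the uninduced mock cells, and -0.04 without replicate 2, and -0.09 without knockdown replicate 2. PABPC3, a close copy read by an _x_at probe set that may pick up PABPC1, had -0.05, and PABPC1L had 0.06.

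The 9 members with a TOP start printed above did not share a direction. EIF2D, EIF2S3 and EIF4B rose, EIF3D fell, and EEF1A1, EEF2, EIF2A, EIF3K and EIF3M did not pass. Among the 38 matched members without it, 2 rose, 6 fell and 30 did not pass. Of 8 measured members of a textbook list of TOP mRNAs, 2 rose (EIF3H and EIF4B), 1 fell (EIF3A) and 5 did not pass. Over all genes 13.5% rose and 14.5% fell, and no difference between members with and without a TOP start was tested.

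No member passed between the arrays labelled induced and not induced. LIN28B itself had a log2 fold change of only 0.19 here (95% interval 0.02 to 0.37, limma adjusted p = 0.999), so the difference did not pass and the labels alone mark these arrays as induced. Whether its probe set reads the tagged transgene was not tested. Limma called 0 of 61 against mock cells without induction, beside 0% of all genes, and 4 members and 344 of all genes had an unadjusted p under 0.05. The 4 were EEF2KMT, with a log2 fold change of -0.41 (95% interval -0.70 to -0.12), EIF2AK4 with 0.38 (0.01 to 0.76), EIF2B2 with -0.18 (-0.33 to -0.04) and EIF3I with 0.13 (0.02 to 0.24). The limma adjusted p was 0.999 for each. EIF2AK4 read 7.08 and 6.51 without induction and 7.19 and 7.16 with it, so replicate 2 of the uninduced cells stood apart. The median log2 fold change of members was 0.00.

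Set against the induced mock arrays, the same knockdown arrays gave 7 members higher, or 11.5% beside 14.0% of all genes, and 15 lower, or 24.6% beside 14.5%. In all 36.1% of members were called beside 28.4% of all genes. This comparison shares the knockdown arrays with the one above and is not independent of it. The counts of rises and falls moved in both directions when 1 array was left out. Leaving out an array of a compared group leaves 1 array there, and the group mean then rests on that array alone. No share of all genes was set beside those counts in this comparison. EIF3J had -0.85 here against -0.97 above, EEF2KMT -0.74 against -1.15, EIF3J-DT -0.85 against -0.80, EEF1AKMT1 -0.65 against -0.68 and EIF5A2 1.19 against 1.09. EIF4E2 (0.34), EIF4EBP1 (-0.35), PABPC1 (-0.21), EIF3C (-0.97) and EEF1AKMT2 (-0.48) passed in this comparison, with limma adjusted p between 0.0085 and 0.0453.

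Other genes around the translation factors were looked at in 7 lists. Of 58 in the table, 5 rose, 8 fell and 45 did not pass in the knockdown against mock cells without induction, so 22.4% were called beside 28.0% of all genes. Of 13 genes of mTOR and cap complex signalling, the shared mTOR complex subunit gene MLST8 fell by 0.70 (standard error 0.08, adjusted p = 0.000298 by limma) and MKNK2, a kinase of eIF4E, rose by 0.30. Of 10 partners in initiation and poly(A) binding, 2 rose and 1 fell. PAIP1, which joins poly(A)-binding protein to the initiation factors, rose by 0.51, its antagonist PAIP2 rose by 0.19, and PAIP2B fell by 0.49. Of 7 genes of ribosome recycling and rescue, LTN1, a ubiquitin ligase for stalled chains, fell by 0.53 and the recycling factor ABCE1 by 0.32. Of 7 enzymes that make hypusine on eIF5A or diphthamide on eEF2, the diphthamide genes DPH6 and DPH3 fell by 0.76 and rose by 0.41. Without replicate 1 of the uninduced mock cells MKNK2 had 0.16, LTN1 -0.35 and ABCE1 -0.19, none passing. ABCE1 had -0.21 without knockdown replicate 2. PAIP2B had -0.33 without replicate 2 of the uninduced mock cells, not passing. MKNK2, PAIP2B and ABCE1 also lost the call without either induced or either knockdown array, LTN1 without knockdown replicate 1, and DPH3 without knockdown replicate 1 (limma adjusted p = 0.0533). Without the intensity trend PAIP2 (limma adjusted p = 0.121), MKNK2, PAIP2B, ABCE1 and LTN1 did not pass.

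Of 9 genes of the eIF2 alpha phosphatase and stress control, IMPACT, an inhibitor of GCN2 activation, fell by 0.78 (standard error 0.163, adjusted p = 0.00643 by limma). ATF4, the transcription factor whose translation eIF2 phosphorylation favours, fell by 0.32, and the phosphatase gene PPP1CC rose by 0.20. ATF4 had -0.13, not passing, without replicate 2 of the uninduced mock cells and -0.51 without replicate 1, and it lost the call without either knockdown array. IMPACT lost the call without knockdown replicate 1 (limma adjusted p = 0.0594), and PPP1CC without that array or replicate 2 of the uninduced mock cells. Neither ATF4 nor PPP1CC passed without the intensity trend. Of 3 genes of selenocysteine and other elongation 0 passed by limma, and 1 had an unadjusted p under 0.05. Of 9 mitochondrial translation factor genes, 1 fell, TSFM by 0.52, and 8 did not pass. TSFM had a limma adjusted p of 0.0546 without knockdown replicate 2.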

How the data were processed

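Total RNA (2 µg, one-cycle labelling, per the labels' protocols) was hybridised to 6 arrays. The authors deposited 1 log2 value per probe set, made with affy and GCRMA per the submitters' processing notes. GCRMA subtracts background by probe base composition and quantile-normalizes arrays, which can shrink low values. Base 2 is taken from what GCRMA returns. The table holds 13008 probe sets, part of the array, by a rule not given in the sources used here. By the platform annotation 11719 have 1 symbol, 609 several and 680 none. Where a gene had several probe sets the one of highest mean was used, leaving 11584 genes. A filter (above 4 on at least 2 arrays) removed 0.

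Groups came from the sample labels. Limma 3.58.1 (R 4.3.3) was fitted to all 6 arrays as 3 groups, with 3 residual degrees of freedom and an intensity trend. Tests are two-sided, with Benjamini-Hochberg adjustment over all genes, and genes whose adjusted p lay under 0.05 were called, whatever their fold change. The number of arrays limits the precision. All members are described by role. Those called, and in each role the uncalled members of largest absolute change and of highest mean, are named with values. The members, roles, lists and alternatives were chosen with earlier results of these data known. Alternatives covered scaling, variance trend, filter, probe set choice, fold minimum, replicate block and leaving out each array. Role genes with no probe set of their own symbol alone, EIF5A, EIF4A1 and EEF1G among them, are not members. EIF4A1, EEF1G and others share 8 probe sets with further symbols, which were fitted as probe sets and named for no gene. No scan batch was used.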

Additional observations from a re-analysis of the deposited data

Results flagged for a closer look

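Probe sets annotated to several symbols were not used for any gene, and 4 of the 8 that list a translation factor passed in the knockdown against mock cells without induction, beside 27.7% of all 13008 probe sets. These fits were chosen after seeing the data, and adjusted p is over probe sets, by limma. The set for SNORA41 and EEF1B2 had a log2 fold change of -2.68, with a range over alternatives of -2.74 to -2.62. The set for EIF3CL and EIF3C had -0.25 (adjusted p = 0.00523), and -0.22 (adjusted p = 0.0515) without knockdown replicate 1.

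The set for EIF4A2 and 5 small RNA genes read 8.80 and 8.59 without induction, 8.67 and 8.38 with it and 8.33 and 8.20 in the knockdown. It had -0.43 (adjusted p = 0.0204), and the call was lost without knockdown replicate 1, knockdown replicate 2 or replicate 1 of the uninduced mock cells. The set for ANKHD1, EIF4EBP3 and their readthrough gene read 6.99 and 7.07, then 7.12 and 7.18, and 7.56 and 7.38. It had 0.44 (adjusted p = 0.0151), and 0.35 (adjusted p = 0.128) without knockdown replicate 1. The 4 that did not pass were the sets for EEF1G and MIR3654 with 0.00, for EIF4A1 and 3 small nucleolar RNA genes with 0.01, for BLOC1S5 and the EEF1E1-BLOC1S5 readthrough gene with 0.06, and for PABPC4 and an uncharacterised locus with 0.20. Which of the annotated genes each probe set reads was not tested.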

How the results depend on the processing

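Of the 17 members called in the knockdown against mock cells without induction, 8 kept the call in every alternative that included them, the fold minimum aside. Others lost it when 1 array was left out, while EIF2S3 and EIF3H lost it only without the intensity trend. Of the 8, EIF3J, EIF2D, EIF4H, EIF5B and EEF2KMT were read by _x_at or _s_at probe sets and were absent from the run without those. EEF2KMT was also absent under the filter at 7. A lone array left in a group is assumed to vary like the other groups. The 6 rises became 3 without the intensity trend, 1 at a 1.5-fold minimum and 4 to 11 with 1 array left out. The 11 falls became 5 of 39 members without _x_at and _s_at probe sets, where 1109 of all 7669 genes left were lower. At a 1.5-fold minimum they became 4 of 61, beside 703 of all 11584 genes. The count of falls also moved with 1 array left out. Against induced cells the 7 rises became 3 without the trend, 1 at 1.5-fold and 3 to 9 with 1 array left out, and the 15 falls 8 without those probe sets, 5 at 1.5-fold and 7 to 19. The median of -0.03 became 0.00 with centred arrays, -0.01 over the 51 members above 7 on at least 2 arrays, 0.00 without those probe sets and -0.06 to -0.02 with 1 array left out. For induction the median of 0.00 became 0.01 under quantile normalization and -0.01 to 0.01 with 1 array left out, and 0 members were called in every alternative.

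With the replicate number as a block, 6 of 61 members were higher and 14 lower against uninduced mock cells, beside 1649 and 1773 of all 11584 genes. Against induced cells 8 members were higher and 15 lower, and 0 were called for induction. Deviations of same-numbered arrays from their group means correlated at 0.18 between the mock groups. With the knockdown arrays the correlation was -0.06 for uninduced and 0.02 for induced mock arrays. The labels do not say whether same-numbered arrays were prepared together, and this was not tested. Against all 4 mock arrays 9 of 61 members were higher and 16 lower, beside 1960 higher and 2049 lower of all 11584 genes. Over all genes, 1563 higher and 1679 lower became 1233 and 1356 without the trend, 815 and 849 without knockdown replicate 1, 846 and 1129 without knockdown replicate 2, and 482 and 703 at 1.5-fold. The causes were not tested.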
